A study of Mus musculus with 74 samples.

Results

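The Slc25 family of mitochondrial carriers was examined in livers of mice lacking the corepressor subunits GPS2, NCOR or SMRT or the nuclear receptor PPARα. Members were the genes whose symbol is Slc25a followed by a number, except 1 that was not analysed here, which gave 41 of the 14583 genes in the RNA-seq table. In the ChIP-seq tables they were the peaks whose nearest start site belongs to such a gene, from 54 of 22814 peaks for H3K4me3 in the Gps2 line to 284 of 115042 peaks for NCOR in the Ppara line. All mice were C57BL/6 on chow diet, labelled as 8 to 12 weeks old. The column names for H3K27ac and H3K4me3 in the Gps2 line say fed, and those of the other libraries used give no feeding state. RNA-seq compared 4 liver libraries of Gps2 LKO mice, in which Cre recombinase under the albumin promoter deletes floxed Gps2 in hepatocytes, with 4 liver libraries of WT mice carrying the floxed alleles without Cre. ChIP-seq compared Gps2 LKO, Ncor LKO and Smrt LKO (liver knockouts) and Ppara KO (a whole-body knockout) each with its own WT group. There were 3 libraries per group for GPS2, NCOR and PPARα in most lines and for H3K27ac in the Ncor and Smrt lines. There were 2 libraries per group for PPARα in the Ppara line and for H3K27ac and H3K4me3 in the Gps2 line, and 1 for GPS2 and Pol II in the Gps2 line. Several immunoprecipitations were pooled into each ChIP library. The labels number the RNA and ChIP libraries without tying each to an animal, so the SDs and p-values measure the spread between these libraries.

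Slc25 proteins sit mostly in the inner mitochondrial membrane and exchange nucleotides, phosphate, amino acids, di- and tricarboxylates and cofactors between the matrix and the cytosol. In hepatocytes they connect oxidative phosphorylation, the urea cycle, gluconeogenesis and lipid synthesis across that membrane. PPARα is a fatty acid sensor that binds DNA with RXR at direct repeats of the hexamer AGGTCA spaced by 1 base (DR1), while NCOR and SMRT are the scaffolds of a corepressor complex that also holds GPS2 and the deacetylase HDAC3. H3K27ac and H3K4me3 are histone marks of active enhancers and promoters.

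Totals were 13194385 to 20086127 reads in the RNA-seq libraries, and about 8.7e+06 to 4.6e+07 tags per ChIP-seq sample as tested. ChIP values below are normalized tags, scaled to 10000000 tags per library. Gps2 mRNA was 16.0 ± 0.72 CPM (reads of a gene relative to all reads of the library, TMM-scaled, SD, n = 4) in WT and 11.2 ± 1.93 in LKO livers, a log2 fold change (logFC) of -0.53 (SE 0.11, edgeR adjusted p = 0.0021) with every LKO library below every WT library. The WT RNA libraries differed from each other by little more than counting noise: the chi-square per gene between pairs was 1.69 to 2.53, where noise alone gives 1. It was 1.53 between LKO libraries 1 and 4, 9.14 to 29.1 between the other LKO pairs, and 66.6 to 95.6 between WT and LKO libraries. The marker counts that follow are edgeR calls at an adjusted p below 0.05, and stand against 23.4% of all genes that rose and 21.4% that fell. Of the hepatocyte markers all 6 were expressed, 3 rose and 1 fell. Markers of other cells also moved: all 5 stellate cell markers rose (summed level 134 to 140 CPM in WT and 243 to 257 in LKO libraries), as did 5 of 6 Kupffer cell markers (97.9 to 103 and 134 to 152 CPM), 2 of 5 endothelial markers (104 to 111 and 115 to 126 CPM) and 2 of 4 cholangiocyte markers (9.11 to 11.5 and 12.5 to 15.1 CPM). The single lymphocyte marker tested rose (summed list 5.34 to 6.42 and 8.05 to 8.95 CPM). Of the erythroid markers 2 rose and 1 fell (219 to 244 and 177 to 238 CPM). A trend of logFC with exon length is described below. With it removed, 5 stellate cell, 4 Kupffer cell, 4 endothelial, 2 cholangiocyte and 1 lymphocyte markers rose. In that fit 2 hepatocyte markers rose and 1 fell, and of the erythroid markers none rose and 1 fell. The part of these cell types in the changes below was not tested. In whole liver a change in the number of cells of a type and a change in RNA per cell cannot be told apart.

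Among the carriers, 39 of 41 passed the filter on low counts, and 24 of these were called at an edgeR adjusted p below 0.05. Up-regulated members numbered 12, against 23.4% of all 12220 genes tested, and down-regulated members also numbered 12, against 21.4%. The family therefore had no common direction: its median logFC was 0.02, and that of all genes was 0.03. No member changed by as much as 1 on the log2 scale. All 4 LKO libraries lay above all 4 WT libraries for 11 of the 12 rises, and below them for 8 of the 12 falls. The share of all called genes with such a separation is not given here, so these counts only describe the members and do not set them apart. Slc25a2 and Slc25a53, which did not pass the filter, stayed at or below 0.823 CPM in every library. The WT libraries were close to each other, and with all 4 of them summed to 1 sample and LKO libraries 1 and 4 summed likewise, no member was called by edgeR (10 of 40 at an unadjusted p below 0.05). Leaving out 1 library at a time cost 10 of the 24 calls in at least 1 of the 8 fits. Slc25a23, Slc25a27, Slc25a34 and Slc25a45 were then called in 2 fits, Slc25a48 in 3, Slc25a29 and Slc25a36 in 4, Slc25a10 in 5 and Slc25a16 in 7. DESeq2 did not call Slc25a27, Slc25a29, Slc25a34 and Slc25a36.

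**Figure D1:**
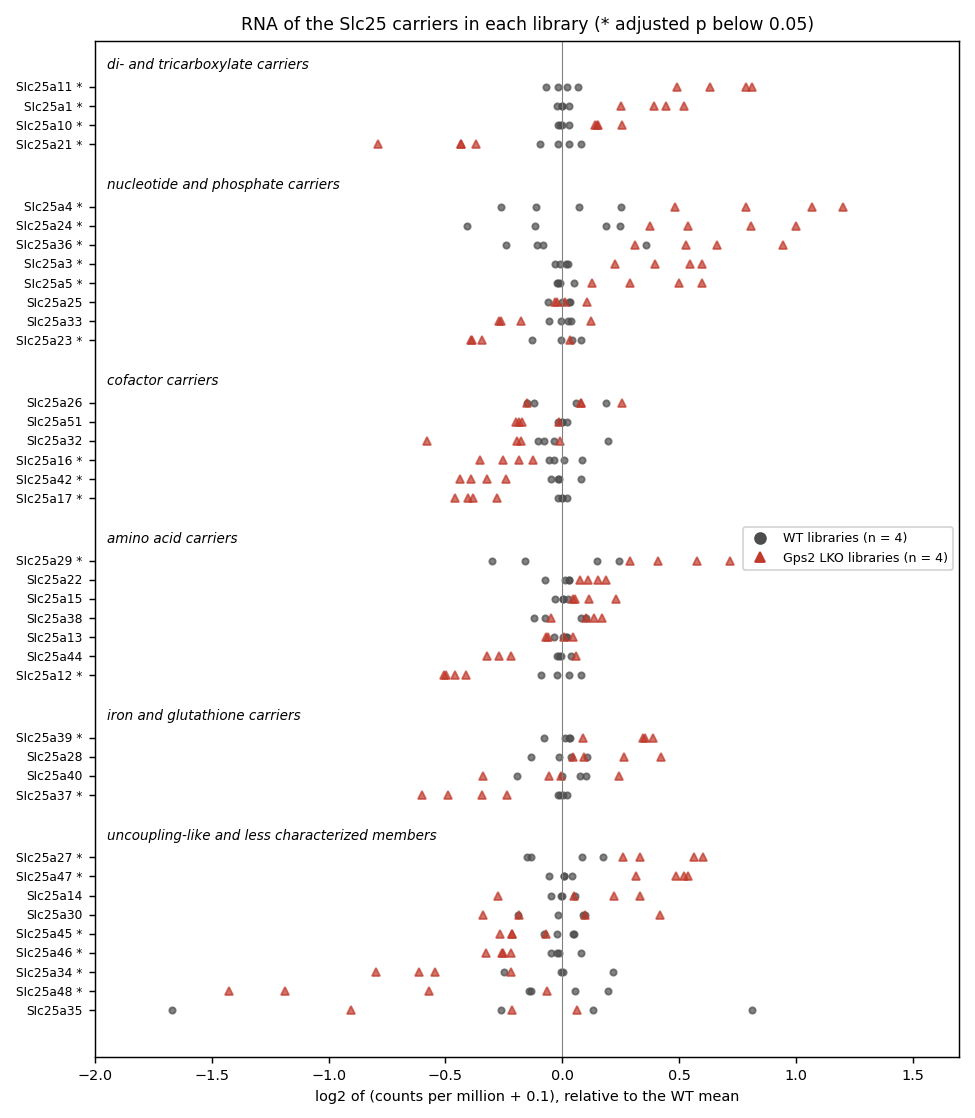
RNA of 38 of the 39 tested carriers in the 4 WT (circles) and 4 Gps2 LKO (triangles) libraries, as the log2 of CPM plus 0.1 relative to the WT mean, grouped by transported substrate. Triangles lie right of the circles for most starred di- and tricarboxylate and nucleotide carriers, and left of them for the 3 starred cofactor carriers.

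Levels per kilobase of exon differed widely between members in WT livers, from 0.103 to 325 CPM per kilobase. Slc25a47, a liver-enriched carrier, was highest at 325, ahead of the glutathione carrier Slc25a39 at 209, the phosphate carrier Slc25a3 at 181 and the citrate carrier Slc25a1 at 138. The Mg-ATP/phosphate carrier Slc25a23 (106), the ADP/ATP carrier Slc25a5 (94.0), the aspartate/glutamate carrier Slc25a13 (84.8) and the ornithine carrier Slc25a15 (81.4) followed. These 8 genes made up 71.0 to 71.4% of the summed level of the family in WT libraries and 73.8 to 76.4% in LKO libraries. The summed level was 1678 to 1731 CPM per kilobase in WT and 1876 to 2093 in LKO libraries, so the groups did not overlap. Of the 8, only Slc25a23 fell, and Slc25a13 and Slc25a15 were not called. By the gene positions of the RNA table, which are those of GRCm38, Slc25a47 lies at chr12:108851129-108856815 on the plus strand, and Slc25a42 (chr8:70184340-70212281) and Slc25a34 (chr4:141618825-141623834) lie on the minus strand.

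**Figure D2:**
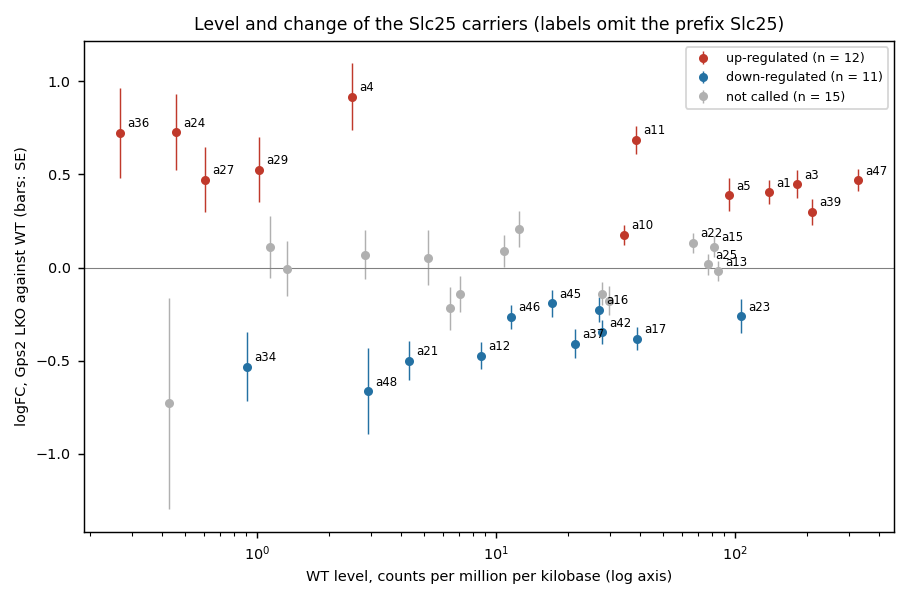
logFC of Gps2 LKO against WT (bars show the SE) plotted against the WT level in CPM per kilobase on a log axis for 38 of the 39 tested carriers. Of the 6 members with the highest level 5 rose, Slc25a11 and Slc25a10 rose at intermediate levels among several falls, and the other 5 rises, led by Slc25a4, were at low levels.

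Of the nucleotide and phosphate carriers, 5 of 8 rose and 1 fell (median logFC 0.42). The counts of this class and of those below stand against 23.4% of all genes that rose and 21.4% that fell. With only 4 to 9 tested genes per class, they are descriptions. Slc25a3 brings phosphate into the matrix for ATP synthesis. It was at 277, 272, 268 and 278 CPM in the WT libraries and 414, 320, 360 and 401 in the LKO libraries (logFC 0.45, SE 0.07, adjusted p = 0.000383). Slc25a5 (ANT2), which exchanges ADP for ATP, was at 120, 121, 120 and 126 CPM in WT and 185, 133, 149 and 172 in LKO livers (logFC 0.39, SE 0.09, adjusted p = 0.00332). Both were above WT in every LKO library. Slc25a4 (ANT1), the form that predominates in heart and muscle, was low in liver, at 2.92, 2.56, 3.32 and 2.29 CPM in WT and 4.85, 3.92, 6.51 and 5.93 in LKO livers. Its logFC of 0.92 (SE 0.18, adjusted p = 0.00136) was the largest rise of the family, and the groups did not overlap. The calcium-regulated Slc25a24 (logFC 0.73, SE 0.20) and the pyrimidine nucleotide carrier Slc25a36 (logFC 0.72, SE 0.24) also rose, from WT means of 1.55 and 0.824 CPM. Slc25a23, from the same subfamily as Slc25a24, went the other way, with 356, 368, 378 and 327 CPM in WT and 281, 366, 272 and 273 in LKO livers (logFC -0.26, SE 0.09, adjusted p = 0.0314). LKO library 2 lay within the WT range, so the groups overlapped. Slc25a25 (logFC 0.02) and Slc25a33 (logFC -0.14, SE 0.10, adjusted p = 0.256) were not called in this fit.

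All 4 di- and tricarboxylate carriers were called, 3 up and 1 down (median logFC 0.29). Slc25a11 exchanges oxoglutarate for malate in the malate-aspartate shuttle. Its WT libraries held 70.5, 74.8, 68.0 and 72.3 CPM and its LKO libraries 123, 100.3, 111 and 125 (logFC 0.69, SE 0.08, adjusted p = 1.27e-05), the lowest adjusted p of the family, and the groups did not overlap. Slc25a1 exports citrate, the carbon source of cytosolic acetyl-CoA. It was at 232, 236, 228 and 231 CPM in WT and 315, 276, 332 and 304 in LKO libraries (logFC 0.41, SE 0.06, adjusted p = 0.000212), again without overlap. The dicarboxylate carrier Slc25a10 rose less (logFC 0.18, SE 0.06, adjusted p = 0.0203), from a WT mean of 137 CPM to 155. Slc25a21, the oxodicarboxylate carrier of lysine and tryptophan breakdown, fell from 11.2, 11.8, 12.2 and 12.6 CPM to 6.87, 8.80, 8.80 and 9.22 (logFC -0.50, SE 0.10, adjusted p = 0.00194). All LKO libraries were below WT.

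None of the 7 cofactor carriers rose and 4 fell (median logFC -0.23), against 23.4% of all genes that rose and 21.4% that fell. Slc25a42 carries coenzyme A into the matrix. It was at 87.4, 93.1, 85.2 and 86.9 CPM in WT and 67.2, 74.5, 65.0 and 70.5 in LKO livers (logFC -0.35, SE 0.07, adjusted p = 0.000988). The other coenzyme A carrier, Slc25a16, fell from a mean of 85.0 to 72.6 CPM (logFC -0.23, SE 0.07, adjusted p = 0.0152). Slc25a17, which resides in the peroxisome and carries coenzyme A, FAD and NAD, was at 64.2, 65.1, 65.0 and 66.1 CPM in WT and 53.7, 49.9, 47.3 and 49.2 in LKO livers (logFC -0.38, SE 0.06, adjusted p = 0.000403). For these 3 genes every LKO library was below every WT library. Slc25a26, Slc25a32 and Slc25a51, which carry S-adenosylmethionine, folate or FAD, and NAD, had logFC of 0.07, -0.22 and -0.14 and were not called.

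Of the amino acid carriers, 1 of 7 rose, 1 fell and 5 were not called (median logFC 0.09). Both isoforms of the aspartate/glutamate carrier were measured. Slc25a12 (aralar), the minor form in liver, fell from 24.9, 26.7, 23.7 and 25.8 CPM to 19.0, 17.8, 17.8 and 18.4 (logFC -0.47, SE 0.07, adjusted p = 0.000265), without overlap. Slc25a13 (citrin), the liver form, was at a mean of 265 CPM in WT and 261 in LKO livers (logFC -0.02, SE 0.05, adjusted p = 0.79). The ornithine carrier of the urea cycle, Slc25a15, had a logFC of 0.11 (SE 0.06, adjusted p = 0.123). The basic amino acid carrier Slc25a29 rose from a mean of 2.00 to 2.89 CPM (logFC 0.53, SE 0.18, adjusted p = 0.0259).

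Of the iron and glutathione carriers, Slc25a39 rose and Slc25a37 fell. Slc25a39, which imports glutathione, was at 356, 352, 357 and 331 CPM in WT and 456, 372, 444 and 446 in LKO livers (logFC 0.30, SE 0.07, adjusted p = 0.00349). Slc25a37 (mitoferrin 1) imports iron for heme synthesis and is best known from erythroid cells. It fell from 88.9, 89.7, 90.8 and 88.3 CPM to 63.8, 76.0, 59.0 and 70.5 (logFC -0.41, SE 0.08, adjusted p = 0.000994). Neither pair of groups overlapped. The erythroid heme synthesis gene Alas2 fell with it (logFC -1.10), while the globin Hbb-b1 rose (logFC 0.55, or 0.16 and not called with the length trend described below removed), and mitoferrin 2 (Slc25a28, logFC 0.21, adjusted p = 0.0929) was not called.

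Among the 9 uncoupling-like and less characterized members 2 rose and 4 fell (median logFC -0.19). Slc25a47 was at 529, 516, 516 and 495 CPM in WT and 747, 640, 721 and 738 in LKO livers (logFC 0.47, SE 0.06, adjusted p = 4.47e-05), with all LKO libraries higher. Slc25a27 rose from a mean of 1.64 to 2.27 CPM (logFC 0.47, SE 0.17, adjusted p = 0.0393). Slc25a46, an outer membrane protein linked to mitochondrial fission, fell from 50.4 to 42.0 CPM (logFC -0.26, SE 0.06, adjusted p = 0.00527) without overlap. Slc25a48 (logFC -0.66, SE 0.23, adjusted p = 0.0325) had the lowest logFC among called members, but it ranged from -1.03 to -0.50 in the leave-outs, and its call was lost when WT libraries 1 and 3 or LKO libraries 1, 3 and 4 were dropped singly. Slc25a34 (logFC -0.53, SE 0.18, adjusted p = 0.0309) was not called in 6 of the 8 leave-outs or with DESeq2 (adjusted p = 0.0554), and for both genes the groups overlapped. Slc25a34 was at 2.85, 2.44, 2.45 and 2.04 CPM in WT and 1.64, 2.09, 1.36 and 1.56 in LKO libraries, in which library 2 was above the lowest WT library. Of the family members named otherwise, Ucp2, Mtch2 and Mtch1 had logFC of 0.04, 0.06 and 0.13 and were not called by edgeR. None of the 3 had an unadjusted p below 0.05.

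The proteins that work with the carriers were read from the same fit. All counts here stand against 23.4% of all genes that rose and 21.4% that fell. Of 14 genes for carrier import into mitochondria 8 rose and none fell (median logFC 0.27). These are short transcripts (median exon length 1113 bases), and with the trend of logFC with exon length removed, as described below, 5 were called up and 1 down (median logFC 0.04). The small chaperone Timm13 then went from 0.52 to 0.26 and its relative Timm10 from 0.37 to 0.00, where it was not called. Of 12 genes of the urea cycle and the malate-aspartate shuttle 6 rose and 1 fell (median logFC 0.26, or 0.10 with the trend removed), with Ass1 at 1.27 and the cytosolic aspartate aminotransferase Got1 at 1.03. Got1 and Slc25a11 belong to the same shuttle, in which Got2 (-0.04) and Slc25a13 were not called. Of 13 other mitochondrial transporters 6 rose and 4 fell, or 4 and 4 with the trend removed. Both subunits of the pyruvate carrier rose, Mpc1 with a logFC of 0.99 (0.68 with the trend removed) and Mpc2 with 0.94 (0.61). Across all genes the logFC declined with exon length (Spearman's rho = -0.40 over the genes tested, and -0.25 over the 39 members, which share these libraries). The median exon length was 1770 bases in the up-regulated members, 2858 in the down-regulated members and 2952 in all genes tested. With this trend removed 22 of the 24 calls stood with the same sign, and Slc25a27 (adjusted p = 0.0571) and Slc25a29 (adjusted p = 0.0709) were lost. In the same fit 3 members were gained: Slc25a33 (logFC -0.29, adjusted p = 0.0127), Slc25a15 (logFC 0.14, adjusted p = 0.0142) and Slc25a22 (logFC 0.11, adjusted p = 0.0416). The rises of the abundant carriers became smaller by more than 1.5 times. The logFC went from 0.39 to 0.14 for Slc25a5, from 0.30 to 0.12 for Slc25a39, from 0.45 to 0.24 for Slc25a3, from 0.41 to 0.23 for Slc25a1 and from 0.47 to 0.27 for Slc25a47. The fall of Slc25a46 went from -0.26 to -0.16, and that of Slc25a45 from -0.19 to -0.34.

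PPARα, NCOR and GPS2 were mapped in Ppara KO livers, in which the target of the PPARα antibody is itself deleted. In the PPARα ChIP, 133 peaks lay at 32 carrier genes, and 60 of them in 22 genes fell in the KO by edgeR, against 27.6% of all peaks in that table. The antibody signal in peaks was itself lower in the KO, at 0.652 and 0.581% of all tags compared with 2.14 and 2.44% in WT, and the median logFC was -2.08 over carrier peaks and -1.68 over all peaks. Called promoter peaks (within 1000 bases of the start) numbered 12 of 28. With TMM scaling, which shifts the median of all peaks to -0.22, 11 carrier peaks were called, all down. DESeq2 called 3, and with either WT library left out none was called.

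NCOR in Ppara KO livers had 284 carrier peaks, of which 10 fell, 3.52% against 2.51% of all peaks tested, and none rose. The 10 peaks belonged to 6 genes: Slc25a34 with 3, Slc25a42 and Slc25a22 with 2 each, and Slc25a33, Slc25a30 and Slc25a36 with 1 each. The median logFC over carrier peaks was -0.28, and -0.32 over all peaks. With TMM scaling, which shifts the latter to -0.02, 7 carrier peaks were called higher and 7 lower. Without WT library 3, 6 were called, as with DESeq2.

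**Figure D3:**
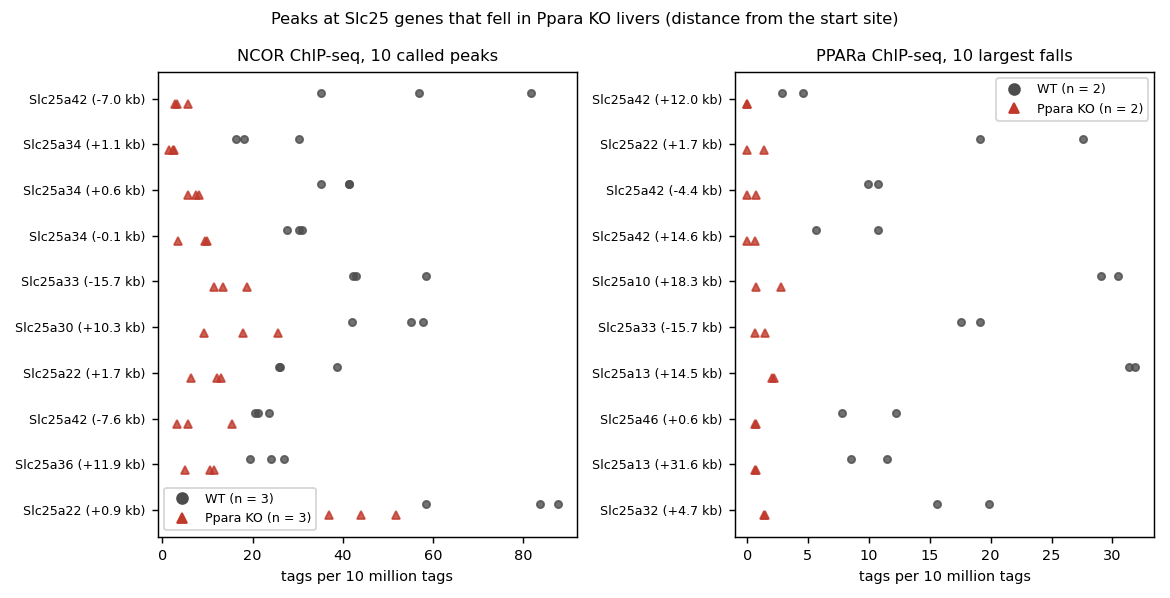
Normalized tags in each WT (circles) and Ppara KO (triangles) library at the 10 called NCOR peaks (3 libraries per group) and the 10 PPARα peaks with the largest falls (2 per group), each with its distance from the start site. All KO libraries lie below all WT libraries at the 20 peaks.

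Sequences are shown for 6 of these peaks, since they carried the falls of NCOR or PPARα at Slc25 genes. They were read from mm9 (NCBIM37) on the strand given, with capitals marking a match to DR1. A match was AGGTCANAGGTCA on either strand with at most 2 mismatches in the 12 fixed bases. None of the 6 overlaps an exon in the annotation, and the first 3 and the last 2 lie outside annotated genes. Both the Slc25a42 and the Slc25a22 peak, like the Slc25a34 promoter peak, had no match in this window.
Slc25a42, NCOR peak 6981 bases upstream of the start, chr8:72743061-72743261, plus strand: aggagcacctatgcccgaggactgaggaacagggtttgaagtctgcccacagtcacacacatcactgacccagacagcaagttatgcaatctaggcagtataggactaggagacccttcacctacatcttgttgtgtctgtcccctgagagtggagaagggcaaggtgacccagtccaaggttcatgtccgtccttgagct
Slc25a34, NCOR promoter peak, chr4:141179762-141179949, plus strand: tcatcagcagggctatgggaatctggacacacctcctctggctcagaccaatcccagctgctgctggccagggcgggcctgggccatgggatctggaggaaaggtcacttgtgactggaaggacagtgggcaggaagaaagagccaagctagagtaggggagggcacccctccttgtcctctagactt
Slc25a33, NCOR peak 15685 bases upstream, chr4:149163993-149164130, minus strand: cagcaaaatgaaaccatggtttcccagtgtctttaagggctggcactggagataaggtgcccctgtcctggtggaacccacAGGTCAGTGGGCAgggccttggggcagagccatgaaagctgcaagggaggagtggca
Slc25a22, NCOR peak in intron 4, chr7:148618756-148618898, plus strand: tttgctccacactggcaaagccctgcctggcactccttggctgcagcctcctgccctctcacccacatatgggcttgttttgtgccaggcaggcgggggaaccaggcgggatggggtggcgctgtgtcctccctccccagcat
Slc25a10, PPARα peak 18319 bases downstream of the start, chr11:120371375-120371566, plus strand: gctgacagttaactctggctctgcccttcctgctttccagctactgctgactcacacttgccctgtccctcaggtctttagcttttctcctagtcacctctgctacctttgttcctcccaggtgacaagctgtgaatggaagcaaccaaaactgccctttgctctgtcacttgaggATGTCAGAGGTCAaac
Slc25a47, PPARα promoter peak, chr12:110089125-110089330, minus strand: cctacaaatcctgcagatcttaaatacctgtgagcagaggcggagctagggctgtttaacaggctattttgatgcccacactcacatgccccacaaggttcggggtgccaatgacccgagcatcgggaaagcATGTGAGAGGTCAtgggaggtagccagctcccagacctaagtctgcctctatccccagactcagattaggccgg

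In 200-base windows on peak centres, such a match was found in 28 of 133 PPARα peaks at carrier genes (21.1%) and in 5615 of all 40214 PPARα peaks (13.96%). It was in 16 of the 60 called and 12 of the 73 uncalled carrier peaks. For NCOR it was in 44 of 284 carrier peaks (15.5%) and in 10.2% of all peaks, and 1 of the 10 called peaks held it. These shares are descriptions, and no match says only that these letters are absent from the window.

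At the Slc25a42 upstream peak shown above, NCOR was at 56.9, 35.3 and 81.7 normalized tags in WT and 5.72, 3.37 and 2.85 in Ppara KO livers (logFC -3.86, SE 0.39, edgeR adjusted p = 3.73e-19). It was the largest fall of NCOR at any carrier gene, the groups were far apart, and it was called with TMM scaling, with DESeq2 and in each of the 6 leave-outs. The peak table places it at the transcript end of the neighbouring gene Armc6, so its assignment to Slc25a42 rests on distance alone. In the same livers GPS2 there was at 6.94, 5.85 and 17.7 tags in WT and 2.18, 1.51 and 0.721 in KO (logFC -2.70, SE 0.75, adjusted p = 0.0654), below the WT range but not called. PPARα at this position was at 4.95 and 4.59 tags in WT and 1.37 and 1.47 in KO (logFC -1.69, adjusted p = 0.137). In the other lines WT livers held 73.3 (Gps2 line) and 44.6 (Ncor line) tags of PPARα there. A second NCOR peak at 7640 bases upstream also fell (logFC -1.45, adjusted p = 0.0135), in 2 of 6 leave-outs.

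The remaining 11 NCOR peaks of Slc25a42 were not called in the Ppara KO, although PPARα fell at several of the same positions. At 4055 bases downstream of the start PPARα was at 13.4 and 16.1 tags in WT and 2.06 and 2.93 in KO (logFC -2.53, adjusted p = 0.00151). At 11971 bases downstream both KO libraries had no tag, against 2.83 and 4.59 tags in WT, at least 3.46-fold lower with a floor of 3 tags over the KO group. At 4387 bases upstream, where no NCOR peak overlapped, PPARα fell from 9.91 and 10.7 tags to 0 and 0.733 (logFC -4.54, SE 0.93, adjusted p = 0.00192).

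**Figure D4:**
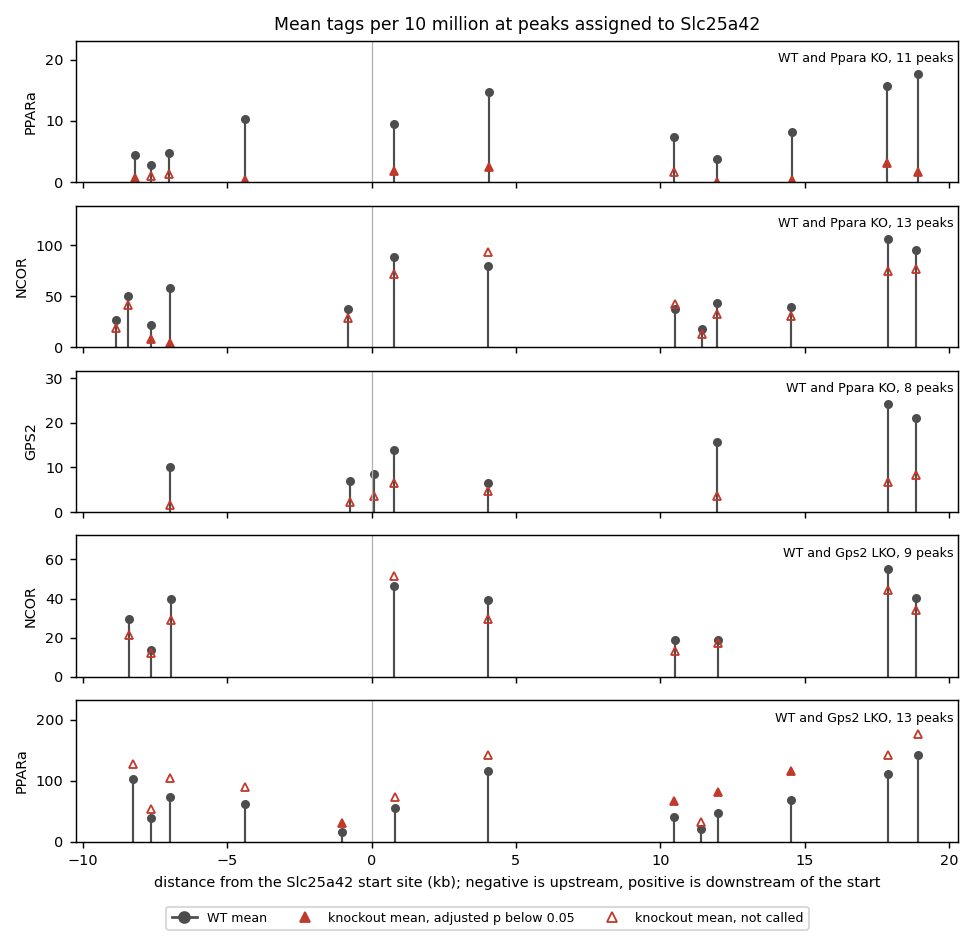
Mean normalized tags at each peak assigned to Slc25a42 in 5 comparisons, plotted against distance from the start site in kilobases, with WT means as circles on stems and knockout means as triangles (filled where called). NCOR in the Ppara KO is far below WT at 6981 bases upstream and close to WT at most other positions, while PPARα lies below WT at all 11 positions. The WT value of PPARα in the Gps2 line is 1 sample summed from 3 libraries.

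The RNA of Slc25a34, a low-level carrier, was called down in Gps2 LKO livers by edgeR, but not by DESeq2 and in only 2 of 8 leave-outs. In the Ppara KO this gene had lower NCOR at 3 neighbouring positions, 2 of them within 1000 bases of its start. At 1124 bases downstream NCOR was at 16.3, 18.1 and 30.3 normalized tags in WT and 2.45, 2.69 and 1.42 in KO (logFC -3.24, SE 0.48, adjusted p = 1.16e-08). At 640 bases downstream it was at 41.4, 35.3 and 41.3 in WT and 8.17, 7.41 and 5.69 in KO (logFC -2.46, SE 0.37, adjusted p = 3.13e-08). At the promoter peak shown above it was at 27.6, 31.0 and 30.3 in WT and 9.81, 9.42 and 3.56 in KO (logFC -1.96, SE 0.38, adjusted p = 6.42e-05). The groups were separate at all 3 positions, which were called in each of the 6 leave-outs. PPARα at the same promoter fell from 12.7 and 17.6 tags to 0 and 2.93 (logFC -3.33, SE 0.67, adjusted p = 0.00168).

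Upstream of Slc25a33, NCOR fell over the 138-base peak shown above, and PPARα fell over a peak of its own that overlaps it. NCOR was at 42.3, 58.5 and 43.0 tags in WT and 18.8, 13.5 and 11.4 in KO (logFC -1.72, SE 0.32, adjusted p = 2.33e-05). PPARα was at 19.1 and 17.6 tags in WT and 0.687 and 1.47 in KO (logFC -4.00, SE 0.56, adjusted p = 9.42e-05). Slc25a33 held called peaks in 3 ChIP comparisons while its RNA was not called. In intron 4 of Slc25a22, a glutamate carrier, NCOR fell from 26.0, 25.8 and 38.8 to 13.1, 12.1 and 6.40 tags (logFC -1.52, SE 0.36, adjusted p = 0.00302). PPARα at that position fell from 27.6 and 19.1 tags to 1.37 and 0 (logFC -4.88, SE 0.62, adjusted p = 4.62e-05), and GPS2 was lower in all KO libraries without being called (logFC -3.03, adjusted p = 0.0703). In intron 2 of Slc25a30, NCOR fell from 57.7, 55.0 and 42.1 tags to 17.98, 25.6 and 9.25 (logFC -1.54, SE 0.31, adjusted p = 0.000104).

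Slc25a10 and Slc25a47, whose RNA rose in Gps2 LKO livers, had large falls of PPARα in the KO. Called falls were also at Slc25a3, Slc25a36 and Slc25a39, whose RNA rose too. They were likewise at Slc25a17, Slc25a34, Slc25a37, Slc25a42, Slc25a45, Slc25a46 and Slc25a48, whose RNA fell, so they did not mark the rising carriers. The Slc25a10 peak shown above lies outside annotated genes and is assigned by distance alone. PPARα there was at 30.4 and 29.1 tags in WT and 2.75 and 0.733 in KO (logFC -4.00, SE 0.45, adjusted p = 1.76e-05). At the Slc25a47 promoter it was at 24.8 and 16.1 in WT and 1.37 and 2.20 in KO (logFC -3.47, SE 0.51, adjusted p = 0.000146), and at 686 bases upstream the logFC was -3.46. In intron 1 of Slc25a13 it fell from 31.9 and 31.4 tags to 2.06 and 2.20 (logFC -3.84, SE 0.40, adjusted p = 1.1e-05). At the Slc25a10, Slc25a13 and Slc25a22 positions the fall was called with TMM scaling and DESeq2 as well. The GPS2 ChIP in Ppara KO livers had 91 carrier peaks and edgeR called none (0.273% of all peaks were called in either direction), with 25 at an unadjusted p below 0.05 and none by DESeq2. Its median logFC was -0.86 over carrier peaks and -0.93 over all peaks, and the share of tags in peaks was 2.42 to 4.39% in WT and 1.07 to 2.06% in KO libraries.

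In Gps2 LKO livers, with 1 library per group, GPS2 was at least 2-fold lower at all 146 carrier peaks, as at 99.2% of all peaks, and none was 2-fold higher (0.102% of all peaks). At the Slc25a47 promoter it had 65 tags in WT and 1 in LKO (41.9 and 0.676 normalized tags, exact Poisson 95% intervals 32.4 to 53.5 and 0.0171 to 3.77, which cover counting error only). PPARα in these livers had 270 carrier peaks, of which 56 in 24 genes rose, 20.7% against 21.5% of all peaks tested, so the carriers were near the background. The 3 WT libraries of this ChIP differed by less than the sampling noise (chi-square per peak 0.923 to 0.937) and were counted as 1 sample, so the spread in this fit comes from the 3 LKO libraries alone. Their tags in peaks came to 20.5% of the total, against 28.9 to 32.1% in the LKO libraries. With TMM scaling, which shifts the median of all peaks from 0.62 to 0.02, no carrier peak rose and 1 fell, DESeq2 called none, and without LKO library 2 or 3 the rises numbered 30 and 31. Rises were found at 4 of the 13 Slc25a42 peaks, one of them 14543 bases downstream of the start at 68.5 tags in WT and 118, 119 and 110 in LKO livers (logFC 0.75, adjusted p = 0.019). NCOR at 194 carrier peaks in the same line gave no call by edgeR (0.0173% of all peaks called, 1 carrier peak at an unadjusted p below 0.05) or by DESeq2.

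Histone marks at the carriers moved little in Gps2 LKO livers. H3K4me3 had 54 carrier peaks and 1 rose, against 0.798% of all peaks. It spans Slc25a47 (chr12:110085211-110098947, mm9), with 1303 and 1257 normalized tags in WT and 1527 and 1819 in LKO livers (logFC 0.39, SE 0.08, edgeR adjusted p = 0.0375), and the RNA of Slc25a47 rose in the same line. The call was lost with TMM scaling and when either WT library or LKO library 2 was left out. For H3K27ac none of 91 carrier peaks was called by edgeR, against 1.42% of all peaks in either direction, with 6 at an unadjusted p below 0.05 and none by DESeq2. Without LKO library 2, 2 were called. Pol II, with 1 library per group, was at least 2-fold higher at 7 of 104 carrier peaks (7.72% of all peaks) and 2-fold lower at 3 (5.94%). None of the 55 promoter peaks was among them, and the 10 peaks had at most 29 tags in either library. At the promoter of Slc25a47 Pol II was at 278 and 279 normalized tags, and at that of Slc25a42 at 195 and 185. Over 39 genes Spearman's rho between the RNA logFC and the log2 Pol II ratio at the promoter was 0.08. With H3K4me3 it was 0.65 over the 19 genes with a peak centred within 1000 bases of the start. That set leaves out genes whose wider peak is centred farther away, among them Slc25a47 (2740 bases), so the sets of genes differ. Both values of rho are descriptions over genes that share the same few libraries.

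**Figure D5:**
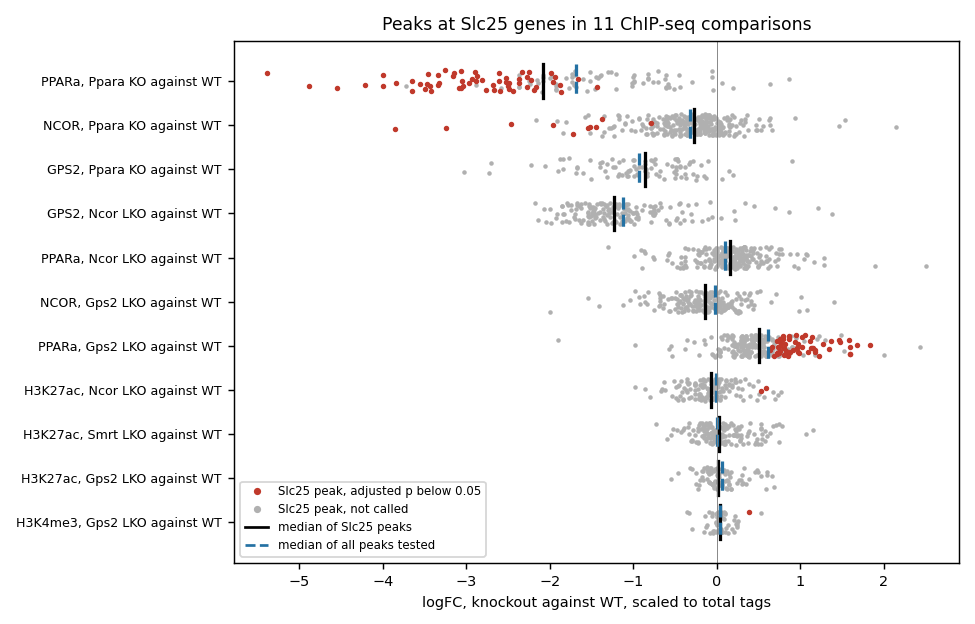
logFC of every Slc25 peak in 11 ChIP-seq comparisons, scaled to total tags, with called peaks in red, the median of the carrier peaks as a solid line and that of all peaks tested as a dashed line. The carrier medians follow the medians of all peaks within 0.4, and the falls of PPARα in the Ppara KO and its rises in the Gps2 LKO hold most of the called peaks.

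In the Ncor line the only carrier peaks called for H3K27ac were 2 at Slc25a42, both up, of 144 tested, against 2.32% of all peaks. The intronic region chr8:72711541-72727707 (mm9) was at 751, 717 and 671 normalized tags in WT and 1192, 1012 and 1015 in Ncor LKO livers (logFC 0.59, SE 0.10, edgeR adjusted p = 0.0143). The upstream region chr8:72742342-72747625, which holds the NCOR peak shown above, was at 204, 224 and 178 in WT and 288, 316 and 269 in Ncor LKO livers (logFC 0.53, SE 0.12, adjusted p = 0.0436). The groups did not overlap at either region. The count fell to 1 without WT library 1 or LKO library 3 and to 0 without WT library 2 or WT library 3, and was 4 with DESeq2. In Smrt LKO livers none of the same 144 peaks was called by edgeR or by DESeq2, with 15 at an unadjusted p below 0.05, and edgeR called 0.0% of all peaks. The logFC there were 0.23 (SE 0.14) at the intronic and 0.39 (SE 0.19) at the upstream region. The difference between the Ncor and the Smrt effect was not called at any carrier peak (0.426% of all peaks were, 13 carrier peaks at an unadjusted p below 0.05, none by DESeq2).

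GPS2 in Ncor LKO livers gave no call by edgeR at 171 carrier peaks (0.0338% of all peaks called), although 77 had an unadjusted p below 0.05. The median logFC was -1.23 over carrier peaks and -1.12 over all peaks. WT library 3 stood apart, with 3.07% of its tags in peaks against 8.23 and 7.82% in the other WT libraries and 2.45 to 3.15% in the LKO libraries, and without it 132 carrier peaks were called, all down. The share of all peaks called without that library is not given here, so the 132 calls are not read as particular to the carriers. DESeq2 called 2, both up, and TMM scaling, which shifts the median of all peaks to -0.04, gave 2 up and 1 down. At a peak upstream of Slc25a30, the one with the lowest p, GPS2 was at 86.8, 53.2 and 23.6 normalized tags in WT and 12.3, 11.8 and 11.9 in LKO livers (logFC -2.17, SE 0.63, adjusted p = 0.0761). PPARα in the same line had 238 carrier peaks and none was called by edgeR (0.196% of all peaks), with 6 at an unadjusted p below 0.05 and 1 by DESeq2. WT library 3 held 8.96% of its tags in peaks, against 18.6 and 19.3% in the other WT libraries, and without it 1 carrier peak was called.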

How the data were processed

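RNA-seq (8 libraries) and ChIP-seq (64 libraries) of mouse liver were used, and the 2 input libraries and the peak lists other than for H3K27ac and H3K4me3 were not used here. The RNA-seq table holds raw read counts per gene, deposited by the authors without normalization, with exon lengths. Its columns of the authors' own edgeR comparison (log2 fold changes, test statistics and calls) were not used. For ChIP-seq the authors deposited raw tag counts of peaks, which HOMER had merged over libraries and assigned to the nearest start site, with library totals in the column headers. The labels name Bowtie2, HOMER, HISAT2, SAMtools and featureCounts and the builds mm9, GRCm38 and mm10 without saying which served which file. The RNA table's gene positions overlap the GRCm38 gene for 41 of 41 members, and peak positions are mm9.

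Groups came from the labels. edgeR 4.0.16 in R 4.3.3 (quasi-likelihood test) was fitted on all genes (TMM scaling, filterByExpr) or all peaks with at least 1 tag (scaled to total tags), with Benjamini-Hochberg adjustment over all of them, and a call is an adjusted p below 0.05. For H3K27ac and H3K4me3 in the Gps2 line, peaks were those in the lists of at least 2 libraries of that mark. With 1 library per group a call is a 2-fold change. Alternatives were DESeq2 1.42.0, other scalings and filters, a replicate block, leaving out each library (77 fits) and removing the trend of logFC with exon length (lowess). The edgeR step was tested on simulated counts in which 200 features were changed. These were features with many counts, changed by more than any carrier RNA, so the test does not bear on small changes or low counts. The named carriers are the 10 largest rises and falls called in RNA, the 8 with the highest WT level, and carriers with RNA not called but called peaks in 3 ChIP comparisons. The named peaks are the 5 largest falls or rises called per comparison and promoter peaks of the named carriers, and all other peaks given were named after their values were seen. The values of 1 called carrier are not reported here, although it is in the counts. The members and lists were chosen with earlier results of these data known. Sequences were read from mm9 with the vM1 annotation. Figures were drawn with matplotlib 3.10.9.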

Additional observations from a re-analysis of the deposited data

Results flagged for a closer look

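In the 48 groups of 4 RNA libraries of the named carriers, 1 library stood apart from the other 3 in 3 groups, where the gap to the nearest library, divided by the range of the group, was above Dixon's critical value for 4 samples. Chance alone sets apart about 1 in 20 groups. For Slc25a23, LKO library 2 was at 366 CPM and the others at 272 to 281 (0.903). For Slc25a39, LKO library 2 was at 372 CPM and the others at 444 to 456 (0.851). For Slc25a5, WT library 4 was at 126 CPM and the others at 120 to 121 (0.831).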

How the results depend on the processing

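The RNA logFC of each named carrier kept its sign under every alternative run. The direction of peak counts did not always hold: PPARα in the Gps2 line went from 56 rises to 1 fall with TMM scaling, GPS2 in the Gps2 line from 146 falls to 63 rises and 15 falls when scaled to tags in peaks, and GPS2 in the Ncor line from 132 falls without WT library 3 to 2 rises with DESeq2. For GPS2 in the Gps2 line, tags in peaks were 7.07% of all tags in WT and 0.310% in LKO. Scaling to them divides out the loss of GPS2 itself. Peaks with no LKO tag were set to a floor of 3 tags. The 63 rises therefore do not measure a gain of GPS2. Of the 24 carrier RNA calls, 14 were kept in all 8 leave-outs, in which 16 to 27 carriers were called, 20 with DESeq2, 24 with DESeq2 size factors and 22 with a replicate block. With the 4 WT libraries summed and LKO libraries 1 and 4 summed, a setting chosen after seeing the data, 0 were called. Same-numbered libraries did not deviate together throughout (correlations up to 0.27), so the numbers are not taken as pairs. With a replicate block the calls were 0 for PPARα in the Ppara line, 4 for H3K4me3, 1 for H3K27ac in the Ncor line and 36 for GPS2 in the Ncor line, and 103 for PPARα in the Gps2 line with its 3 WT libraries separate (104 without the block, both chosen after seeing the data).

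With TMM scaling the calls were 11 for PPARα in the Ppara line, 0 for H3K4me3, 3 for GPS2 and 5 for PPARα in the Ncor line, and 1 for PPARα in the Gps2 line. With DESeq2 they were 3 for PPARα and 6 for NCOR in the Ppara line, 4 for H3K27ac, 2 for GPS2 and 1 for PPARα in the Ncor line, and 0 for PPARα in the Gps2 line. With a mean of at least 10 tags they were 30 (of 31 peaks left) for PPARα in the Ppara line and 15 for GPS2 in the Ncor line. That mean runs over WT and knockout libraries. PPARα peaks with few KO tags therefore pass mainly through high WT tags, so the share called among the peaks left is no separate result. Scaled to tags in peaks, Pol II in the Gps2 line was 2-fold lower at 5.

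Leaving out 1 library gave 0 to 54 calls for PPARα in the Ppara line (none without either WT library, 54 and 42 without a KO library), 6 to 12 for NCOR in the Ppara line, 30 to 53 for PPARα in the Gps2 line, 0 to 132 for GPS2 and 0 to 1 for PPARα in the Ncor line (132 and 1 without WT library 3), 0 to 3 for H3K27ac in the Ncor line, 0 to 2 for H3K27ac in the Gps2 line and 0 to 1 for H3K4me3. The cause of these changes was not tested. The peaks of PPARα in the Ppara line hold few tags, and 2 libraries per group give little measure of the spread.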
